A study of Bos taurus with 4 samples.

Results

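Large parts of the autosomes of bovine embryonic stem cells (bESCs) lay far from any peak of H3K4me3 or H3K27me3. The stretches described here are the gaps of 500 kb or more between neighbouring peaks on chromosomes 1 to 29, after the peaks of all 4 deposited lists had been put together. They were chosen by the absence of a listed peak, so their emptiness and their length are descriptions and not findings. There were 798 such stretches among 33600 gaps of any length, or 2.38% of the gaps. They added up to 815 Mb, which was 32.8% of the 2485 Mb between the first and the last peak of the 29 chromosomes.

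Trimethylation of lysine 4 on histone H3 (H3K4me3) sits mainly at promoters that are active or held ready for use. Trimethylation of lysine 27 (H3K27me3) is deposited by the Polycomb repressive complex and covers silent developmental genes, often as broad domains. In pluripotent cells many promoters of developmental regulators carry both marks and are called bivalent. Long stretches of mammalian chromosomes have neither mark, and such stretches are known to include gene-poor DNA and other forms of heterochromatin, such as DNA at the nuclear lamina or packed with H3K9me3. None of these features was measured in the data used here.

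The marks were profiled by CUT&RUN, in which an antibody brings a nuclease to the marked chromatin and the DNA it cuts free is sequenced. All 4 libraries came from untreated bESCs of *Bos taurus*, with about 50000 cells in each, and each mark had replicates 1 and 2. The cells were derived from an in vitro fertilized blastocyst of day 7 on mouse embryonic fibroblast (MEF) feeders, in N2B27-based NBFR medium that held BSA (1%), the Wnt inhibitor IWR-1 (2.5 μM) and FGF2 (20 ng/mL), and the feeders were depleted before the assay. The sample labels name a single female blastocyst while the paper's legend names a pair of independent lines, so whether replicates 1 and 2 differ by line or by library is not clear. The identity of the cells was not checked here, since no annotation of the same assembly was at hand to place marker genes. For the same reason the stretches are given by position, in ARS-UCD1.2 and counted from 1, with no gene names and no sequence.

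Autosomal peaks numbered 23890 and 22007 for H3K4me3 (replicates 1 and 2) and 15943 and 15017 for H3K27me3. H3K4me3 peaks covered 64.5 Mb and 64.7 Mb and H3K27me3 peaks 180 Mb and 194 Mb. Overlapping peaks of the 4 lists merged into 33629 blocks, which covered 278 Mb, or 11.2% of the autosomes. The lists do not tell how deeply each library was sequenced, so a stretch without a peak is a stretch where none was listed, and the mark may still be present at a level below detection. Whether reads could be placed along the whole of each stretch was not tested.

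The stretches ranged from 500 kb to 5.83 Mb. Their median length was 776 kb, with quartiles of 614 kb and 1117 kb, while the median over all gaps was 13.2 kb. A length of 1 Mb or more was reached by 254 stretches (31.8%), which held 53.9% of the total length and lay on 27 of the 29 chromosomes. There were 66 stretches of at least 2 Mb, 20 of at least 3 Mb and 5 of at least 4 Mb. The 224 longest together held 50% of the total. Nothing in the lengths set the limit of 500 kb apart, with 121 gaps from 450 to 500 kb and 96 from 500 to 550 kb. The shortest stretches inside it were 500 kb on chromosome 14, 500.2 kb on chromosome 24 and 501.4 kb on chromosome 1. The gaps just below it were 497.2 kb on chromosome 4, 497.0 kb on chromosome 9 and 495.2 kb on chromosome 6.

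**Figure D1:**
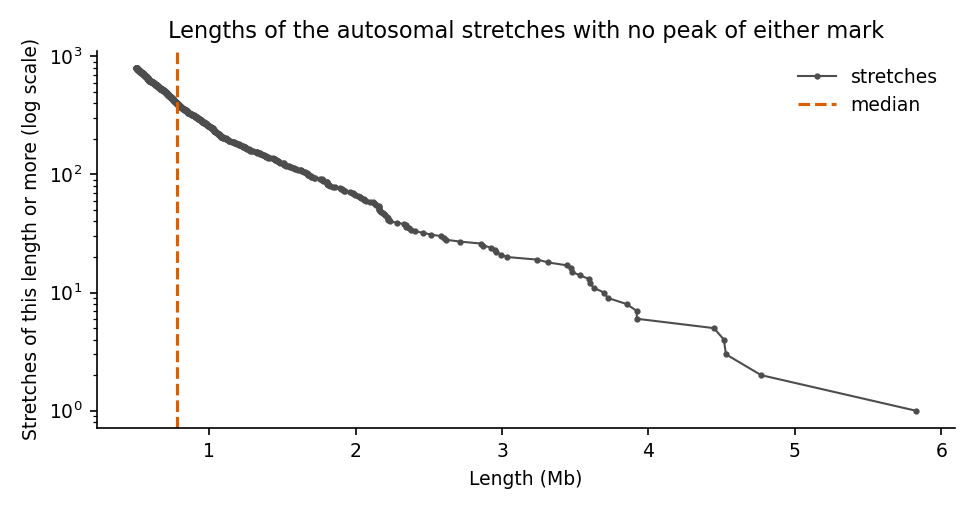
Number of stretches (log scale) that reach at least the length on the x axis (Mb), 1 point per stretch, with the median of 776 kb as a dashed line. The counts fall from 798 at 500 kb to 254 at 1 Mb and 5 at 4 Mb, with a single stretch above 5 Mb.

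In every single list the free interval around a stretch was at least as long as the stretch itself. It had the same limits as the stretch at 122 stretches in H3K4me3 replicate 1, 110 in H3K4me3 replicate 2, 20 in H3K27me3 replicate 1 and 70 in H3K27me3 replicate 2, and 1 stretch had no H3K27me3 peak on one side to close it. For H3K4me3 the free interval around a stretch had a median of 0.94 Mb in replicate 1 and 1.00 Mb in replicate 2. For H3K27me3 it was 1.92 Mb and 1.78 Mb. With the replicates of a mark together, the interval without H3K27me3 was the longer at 610 stretches, and the interval without H3K4me3 at 186. H3K4me3 alone gave the limits of 335 stretches and H3K27me3 alone those of 121.

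The longest stretch, of 5.83 Mb, lay on chromosome 20 at 42359601 to 48185800. The free interval around it was 6.46 Mb in both H3K4me3 lists, 10.4 Mb in H3K27me3 replicate 1 and 5.83 Mb in H3K27me3 replicate 2. Its left border carried both marks in all 4 libraries. There H3K4me3 replicate 1 had a peak at 42351801 to 42356200 and replicate 2 had its own at 42352801 to 42355800, beside H3K27me3 peaks of 8.40 kb and 10.6 kb. Its right border was a single H3K27me3 peak of 6.40 kb in replicate 2, whose score reached percentile 40.7 of the list. The nearest H3K4me3 peak on that side was 625 kb further out in either replicate. The right limit therefore came from 1 library, and without H3K27me3 replicate 2 the stretch ran to 48811000, a length of 6.45 Mb.

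The second longest, of 4.77 Mb, lay on chromosome 17 at 20295401 to 25065000 and had strong H3K4me3 peaks on either side. Their scores stood at or above 98.3% and 96.7% of the lists of replicates 1 and 2 on the left and 98.7% and 98.6% on the right. The right border also had H3K27me3, in peaks of 9.0 kb and 10.6 kb, whereas on the left the nearest H3K27me3 peak was 2139 kb and 2140 kb beyond the border. The free interval was 4.77 Mb in both H3K4me3 lists and 6.91 Mb in both H3K27me3 lists.

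The third, of 4.53 Mb on chromosome 24 at 14826001 to 19355400, was bordered by H3K27me3 alone. The border peaks had low scores, at or above 24.5% of the list in replicate 2 on the left and 20.0% in replicate 1 on the right, and each bordering block came from a single library. The H3K4me3 intervals were 5.45 Mb and 5.46 Mb in replicates 1 and 2 and the H3K27me3 intervals 4.54 Mb and 4.67 Mb. The fourth and the fifth lay on chromosome 6, at 76720601 to 81235600 (4.52 Mb) and 50012201 to 54459400 (4.45 Mb). At the fourth, all 4 lists left an interval of similar length, of 4.52 Mb in both H3K4me3 lists and 4.99 Mb in both H3K27me3 lists. At the fifth the lists differed, with 5.63 Mb and 5.67 Mb for H3K4me3 and 8.51 Mb and 7.95 Mb for H3K27me3.

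Every autosome had at least 2 of the stretches, with a median of 25 per chromosome. Chromosome 1 had the most, 65, with a summed length of 69.5 Mb and a longest stretch of 3.53 Mb at 46398801 to 49929200. Chromosome 12 had the largest share of its length in them, 55.2%, in 38 stretches with a median of 952 kb. The longest on chromosome 12 was 3.92 Mb, at 40605001 to 44524000, where the free interval was 3.92 Mb in both H3K4me3 lists and 6.08 Mb in both H3K27me3 lists. Chromosome 6 followed with 50.7%, then chromosomes 1 (43.9%), 24 (43.6%) and 2 (40.3%). The median over the 29 chromosomes was 32.1%.

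At the other end, the stretches took up 2.02% of chromosome 23, 5.84% of chromosome 25, 11.1% of chromosome 19 and 17.2% of chromosome 18. Chromosome 23 had 2 stretches, of 555 kb and 504 kb, and chromosome 25 had 4, none above 729 kb. Without H3K4me3 replicate 1 the number on chromosome 23 was 4, and with only peaks shared by both replicates it was 6. Of the 6 on chromosome 19, a single long one of 3.6 Mb near the start of the chromosome, at 1421401 to 5019800, made up most of the 7.02 Mb. It was bordered on both sides by both marks in all 4 libraries, and the free interval around it was 3.6 Mb in each of them. When peaks scoring below their list's median were dropped, chromosome 23 had 14 stretches and a share of 28.2%, while chromosome 25 had 14.6% and chromosome 19 had 15.0%. The place of chromosome 23 as the lowest thus rested on peaks with scores below the median, and chromosome 25 was lowest without them.

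**Figure D2:**
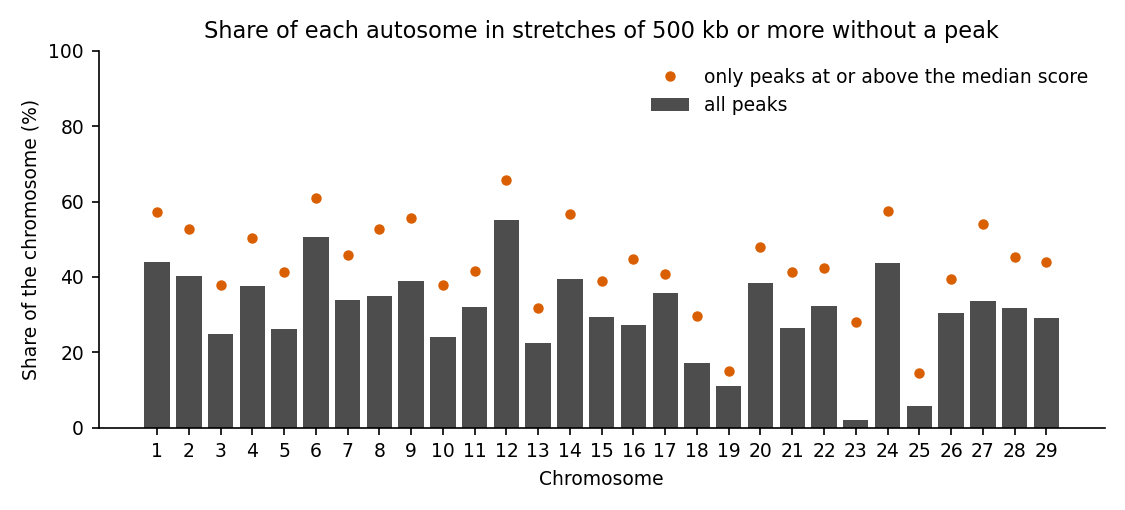
Share (%) of each autosome in stretches of 500 kb or more without a peak of either mark, from all peaks (bars) and after peaks scoring below their list's median were dropped (points). Chromosomes 12 and 6 are highest at 55.2% and 50.7%, and chromosome 23 moves most in proportion, from 2.02% to 28.2%.

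Longer chromosomes had more of the stretches, with Pearson's r = 0.90 and Spearman's rho = 0.87 between number and length over the 29 chromosomes (r = 0.85 without chromosomes 1 and 2). The share of a chromosome in them was less closely tied to its length, with r = 0.44 and rho = 0.39. Chromosomes with a larger share also had fewer H3K4me3 peaks per Mb in the rest of their sequence, with r = -0.72 in replicate 1 and -0.73 in replicate 2 (-0.67 and -0.69 without chromosomes 18 and 23). For H3K27me3 the values were -0.75 in both replicates (-0.60 and -0.59 without chromosomes 23 and 25). These are descriptions with no p-value, since the chromosomes were read in the same libraries. The same lists set both the stretches and the peaks per Mb, so a negative r may follow from the choice of the stretches. No reference value for that case was worked out, and no conclusion is drawn from these values.

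Summed over the 29 chromosomes, the stretches took up similar shares along the length until near the end. Each chromosome was divided into 10 parts of equal length from its first to its last peak, and the parts were pooled over the chromosomes. Single chromosomes were not evenly filled, with a run of stretches that spanned 13.6 Mb on chromosome 20. The pooled share in the stretches was between 32.9% and 37.9% in each of parts 1 to 8. It was 23.4% in part 9 and 17.9% in part 10. Bovine autosomes are acrocentric, and by convention their numbering starts at the centromere, so parts 9 and 10 are those farthest from it. H3K27me3 peaks covered 18.8% and 19.2% of part 10 in replicates 1 and 2 and 10.9% and 11.7% of part 9. In parts 1 to 8 they covered 3.17% to 6.59% (replicate 1) and 3.45% to 7.35% (replicate 2), with the lowest values in part 4. The same lists set both the stretches and the coverage of each part. These values are therefore not independent, and no conclusion is drawn from them. H3K4me3 covered 3.43% and 3.44% of part 9 and 3.35% and 3.39% of part 10, against 2.03% to 2.61% of parts 1 to 8 over both replicates.

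The 798 stretches had 1596 edges, and at each edge the bordering block of peaks was read for the marks it held. H3K4me3 was present at 1314 edges, or 82.3% (95% Wilson interval 80.4% to 84.1%), against 68.0% of the edges of all gaps. H3K27me3 was present at 653 edges, or 40.9% (38.5% to 43.3%), against 45.4%. Blocks with both marks made up 371 edges, or 23.2% (21.2% to 25.4%), against 13.3% of all edges. The intervals cover counting error only, and 166 blocks lay between a pair of neighbouring stretches and were counted at both, so the 1596 edges came from 1430 blocks. Of the remaining edges, 943 had H3K4me3 only and 282 had H3K27me3 only.

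The share of edges with both marks was higher at gaps of 500 kb or more than at the shorter classes, and it was alike in the longest pair of classes. It was 13.2% at gaps under 10 kb, 11.5% at 10 to 50 kb, 12.6% at 50 to 100 kb, 16.2% at 100 to 250 kb, 19.6% at 250 to 500 kb, 23.3% at 500 to 1000 kb and 23.2% from 1 Mb upward. The share with H3K4me3 did not follow that order, since it was 85.0% at 100 to 250 kb and 84.4% at 250 to 500 kb. Edges with H3K27me3 only went from 43.9% at gaps under 10 kb to 15.0% at 100 to 250 kb and were 17.1% and 18.9% at the 2 longest classes. The share with any H3K27me3 was 57.1% under 10 kb, 38.5% at 10 to 50 kb, 31.6% at 50 to 100 kb, 31.2% at 100 to 250 kb and 35.1% at 250 to 500 kb, so the 40.9% of the stretches was below that of all gaps but above that of the classes nearest in length. Gaps under 10 kb were 14999 of the 33600, so they weigh most in the values for all edges. At the 20 stretches of 3 Mb or more, 26 of 40 edges had H3K27me3, or 65.0% (49.5% to 77.9%), and 28 had H3K4me3, or 70.0% (54.6% to 81.9%). That class was looked at after the values were seen.

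**Figure D3:**
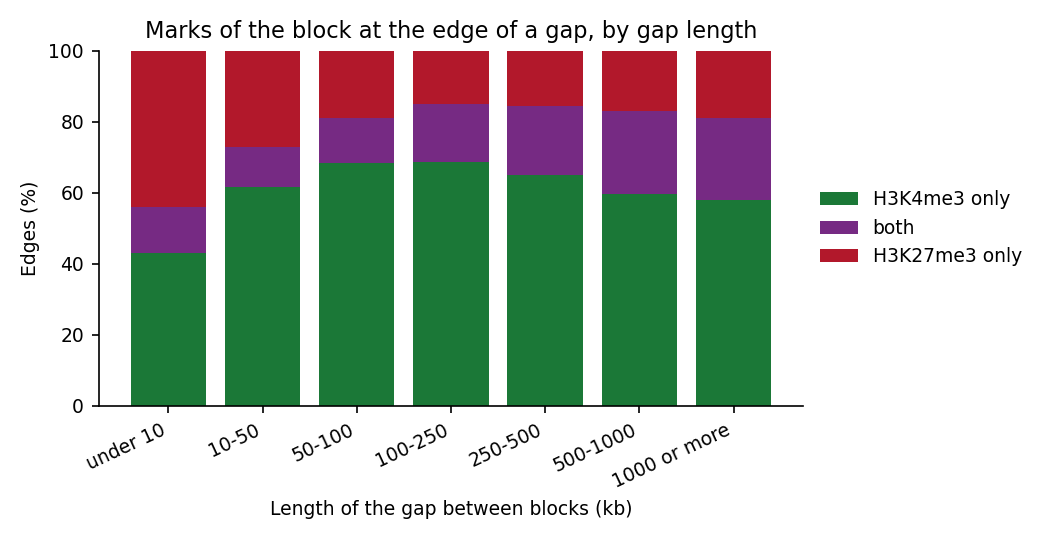
Share of gap edges (%) whose bordering block of peaks held H3K4me3 only, both marks or H3K27me3 only, by length of the gap (kb). Edges with both marks go from 11.5% at 10 to 50 kb to 23.2% at 1 Mb or more, and H3K27me3 only is most frequent (43.9%) beside gaps under 10 kb.

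Read library by library, the bordering block held a peak of H3K4me3 replicate 1 at 77.0% of the edges and of replicate 2 at 70.4%. For H3K27me3 these shares were 34.3% in replicate 1 and 37.9% in replicate 2. Over the edges of all gaps the shares were 62.6% and 57.8% for H3K4me3 and 37.6% and 39.6% for H3K27me3. H3K4me3 was thus also the more frequent mark when all gap edges were pooled, though not at gaps under 10 kb, where H3K4me3 was at 56.1% and H3K27me3 at 57.1% of the edges. At gaps of 250 to 500 kb the shares were 80.1% and 72.3% for H3K4me3 and 27.1% and 32.5% for H3K27me3, so against that class the stretches had slightly less H3K4me3 and more H3K27me3. Peaks of all 4 libraries met at 327 edges (20.5%), against 10.5% of the edges of all gaps. That share was 13.7% at gaps of 100 to 250 kb and 17.2% at gaps of 250 to 500 kb. A single library gave the block at 380 edges, or 23.8%, which is near the 25.7% of all edges. Of these 380, H3K4me3 replicate 1 gave 180 (47.4%), H3K4me3 replicate 2 gave 82 (21.6%), H3K27me3 replicate 1 gave 40 (10.5%) and H3K27me3 replicate 2 gave 78 (20.5%). Of the 17278 single-library edges of all gaps, the same lists gave 35.9%, 18.8%, 18.7% and 26.6%. At gaps of 250 to 500 kb H3K4me3 replicate 1 gave 47.9% and H3K27me3 replicate 1 gave 9.89%, so these shares were not particular to the stretches. Blocks of a single library had low scores, and the median over those edges of the highest score in the block stood at or above 12.5% of its list. For single-library edges this median was 16.2% over all gaps and 14.5% at gaps of 250 to 500 kb, so low scores were not particular to the stretches. The median over all edges of the stretches was 55.7%, against 52.2% for all gaps. At gaps of 100 to 250 kb it was 57.7% and at 250 to 500 kb 55.5%, so this value was not particular to the stretches either. The bordering blocks had a median width of 3.80 kb, against 4.40 kb for all gaps. It was also 3.80 kb in each class from 50 to 500 kb, and 5.40 kb at gaps under 10 kb.

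Both edges had H3K4me3 only at 282 stretches (35.3%), the most frequent pair, against 41.9% of all gaps. At 233 (29.2%), H3K4me3 only faced a block with both marks, while the same pair made up 13.2% of all gaps. H3K4me3 only faced H3K27me3 only at 146 stretches (18.3%), against 12.2% of all gaps. A pair of H3K27me3 only was found at 33 stretches (4.14%), against 21.8% of all gaps, and a pair of blocks with both marks at 34 (4.26%), against 2.60%. H3K27me3 only faced both marks at 70 stretches (8.77%), against 8.26% of all gaps. Pairs were not counted by gap length, and gaps under 10 kb weigh most in the values for all gaps. Of the single edges, 17.7% at the stretches and 15.6% at gaps of 250 to 500 kb had H3K27me3 only. Both marks were at 23.2% and 19.6%. The contrasts between the pairs and all gaps are thus not shown to be particular to the stretches.

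The exact limit of a stretch was given by an H3K4me3 peak at 64.1% of the edges and by an H3K27me3 peak at 37.3%, and by both at the few where they ended together. The nearest H3K4me3 peak of either replicate lay within 100 kb at 87.0% of the edges, and the nearest H3K27me3 peak at 48.0%. The median distance from the edge to the nearest H3K27me3 peak was 145 kb, with an upper quartile of 765 kb. These shares and distances are not given for all gaps, so they do not set the stretches apart. In the bordering blocks of all gaps H3K4me3 was also the more frequent mark, at 68.0% of the edges against 45.4% for H3K27me3.

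Some of the stretches lay close to the next one. In 219 places fewer than 100 kb separated a stretch from the next one on the chromosome, and these islands of peaks had a median width of 6 kb and a median of 3 peaks. A single block formed 166 of the islands. H3K4me3 only was found in 110 islands (50.2%), H3K27me3 only in 35 (16.0%) and both marks in 74 (33.8%). All 4 libraries had a peak in 65 islands (29.7%). In 36 islands (16.4%) a single library had one, and in 23 of these it was H3K4me3 replicate 1. Over the edges of all gaps, H3K4me3 only made up 54.6%, H3K27me3 only 32.0%, both marks 13.3%, blocks of all 4 libraries 10.5% and blocks of 1 library 25.7%. Islands can join several blocks and edges are single blocks, so these shares are not counted alike. The highest score in an island stood at or above 63.5% of its list at the median over all islands and 14.8% at the median over those 36. Joined across the islands, 370 of the 798 stretches (46.4%) formed 151 runs of at least 2, and 11 of the runs spanned 5 Mb or more. The same count was not made for gaps of other lengths. Whether the stretches lie closer together than other gaps was therefore not tested.

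The longest run spanned 13.6 Mb of chromosome 20, from 42359601 to 55951200, in 6 stretches. Only 16.4 kb of it, or 0.121%, lay under the 10 peaks that separated them. After the first stretch of 5.83 Mb, the H3K27me3 peak of replicate 2 at 48185801 to 48192200 was followed by a stretch of 616 kb. At 48811201 to 48812400 and 48811001 to 48813400, H3K4me3 peaks of replicates 1 and 2 lay inside an H3K27me3 peak of replicate 2. At 50354401 both H3K4me3 lists had a short peak, of 1.4 kb and 1.2 kb, with no H3K27me3. The window at 52719601 to 52719800 was listed in replicate 1 of both marks and in neither list of replicate 2, with a score of 26 for H3K4me3 and 29 for H3K27me3. The last island was an H3K4me3 peak at 53332601, of 2.00 kb and 1.40 kb in replicates 1 and 2. No peak in the run stood above 51.3% of its list, and once the peaks scoring below their list's median were dropped a single gap of 11.0 Mb remained from 42359601 to 53332600.

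**Figure D4:**
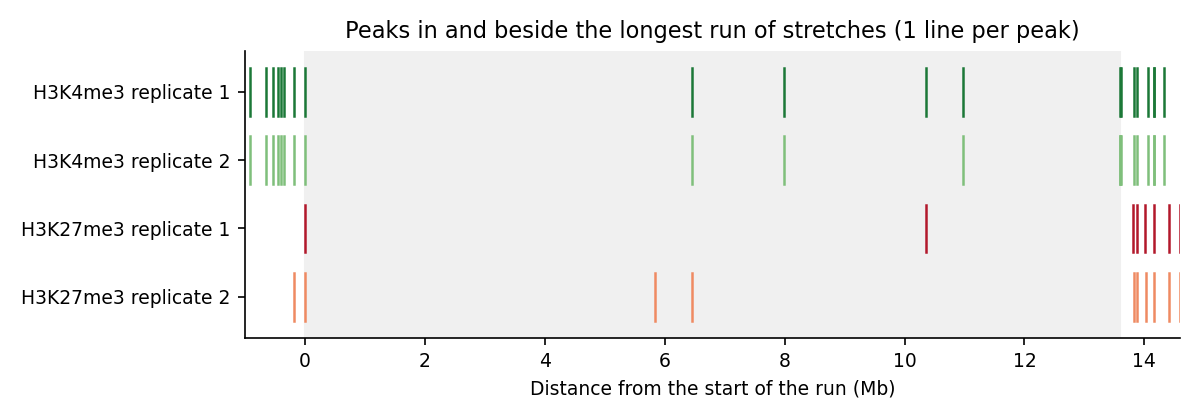
Peaks of each of the 4 libraries (1 line per peak) in the longest run of stretches (grey, 13.6 Mb on chromosome 20) and for 1 Mb on either side, by distance from the start of the run (Mb). The 10 peaks inside the grey area fall at 5 places, and the first stretch, of 5.83 Mb, has none.

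The next longest runs were of 10.1 Mb on chromosome 6 (46509201 to 56595800, 4 stretches and 8 peaks), 9.47 Mb on chromosome 12 (36966801 to 46434200, 5 stretches and 10 peaks) and 8.54 Mb on chromosome 1 (26585201 to 35121400, 6 stretches and 11 peaks). On chromosome 17 the second longest stretch and a neighbour of 3.63 Mb were separated by a single block of 10.8 kb that held a peak of all 4 libraries.

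The sequence beside the stretches was itself sparse in peaks beyond the bordering block. In the first 5 kb outside an edge, H3K4me3 peaks covered 39.97% and 39.5% in replicates 1 and 2 and H3K27me3 peaks 26.5% and 33.9%, which is fixed in part by the choice of the edge. From 50 to 100 kb outside, coverage was 1.82% and 1.80% for H3K4me3 and 2.95% and 3.42% for H3K27me3. It was higher farther out, and from 750 to 1000 kb outside it was 2.98% for H3K4me3 in both replicates and 5.18% and 6.0% for H3K27me3. All sequence outside the stretches was covered at 3.86% and 3.88% by H3K4me3 and 10.8% and 11.6% by H3K27me3. At 750 to 1000 kb both marks were thus still below that level in both replicates, H3K27me3 the more so. That level pools chromosomes of unlike coverage and unlike numbers of edges. For H3K4me3 replicate 1 it was 2.66% on chromosome 1, with 65 stretches, and 11.3% on chromosome 23, with 2. For H3K27me3 replicate 1 it was 7.13% and 18.5% on the same chromosomes. How much of the difference follows from the chromosomes on which the edges lie was not tested. Other stretches were left out of these windows, and a place near several edges was counted for each of them.

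**Figure D5:**
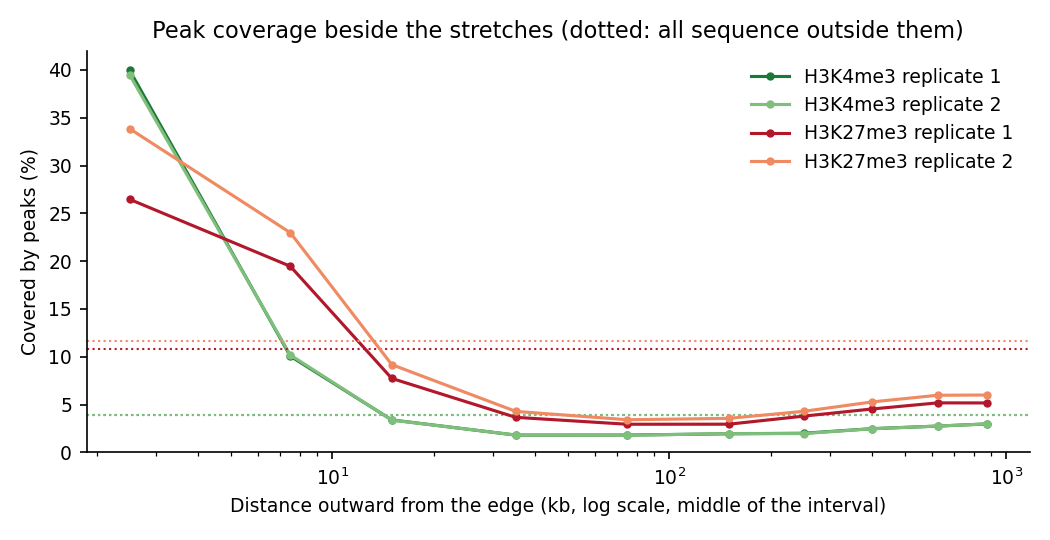
Share of sequence covered by peaks (%) of each of the 4 libraries by distance outward from the edges of the stretches (kb, log scale), with dotted lines at the coverage of all sequence outside the stretches. The H3K4me3 lines of both replicates nearly coincide, and coverage from 50 to 100 kb (1.82% and 1.80% for H3K4me3, 2.95% and 3.42% for H3K27me3) is below the dotted lines.

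Because all 4 lists chose the stretches, a reading independent of the choice was taken by choosing on 1 replicate and reading the other. The lists of replicate 1 alone gave 832 stretches of 500 kb or more, of 864 Mb in all. Peaks of replicate 2 covered 0.0342% of them for H3K4me3 and 0.141% for H3K27me3, against 3.98% and 11.9% of the rest. The lists of replicate 2 alone gave 838 stretches of 884 Mb, of which the peaks of replicate 1 covered 0.0463% for H3K4me3 and 0.0535% for H3K27me3, against 4.00% and 11.2% of the rest. No peak of either replicate 2 list touched 228 of the replicate 1 stretches (27.4%), and none of replicate 1 touched 324 of the replicate 2 stretches (38.7%). Touching peaks made up 2.21% of the H3K4me3 and 2.97% of the H3K27me3 list of replicate 2, with median scores at percentiles 45.5 and 45.7. For replicate 1 they made up 2.36% and 1.27%, at percentiles 28.8 and 41.7. Many of these peaks reached in over an edge. A count of peaks wholly inside, added after seeing the data, left 641 (77.0%) of the replicate 1 stretches and 590 (70.4%) of the replicate 2 stretches without one. Peaks wholly inside were few and lower in score. There were 109 for H3K4me3 and 133 for H3K27me3 from replicate 2, and 262 and 64 from replicate 1, with medians at or above 9.03% and 18.7% of the lists of replicate 2 and 12.7% and 19.01% of those of replicate 1. No p-value is given, since there was 1 pair of replicates and p-values over regions would not measure the spread between cultures.

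The marks were set against each other in the same way. The H3K4me3 lists alone left 951 stretches of 500 kb or more, with 1002 Mb. H3K27me3 peaks covered 4.56% and 5.15% of these in replicates 1 and 2, against 8.99% and 9.52% of the rest of the chromosomes. No H3K27me3 peak of either replicate touched 335 of the 951 stretches (35.2%). No whole one lay in 542 (57.0%), and the 951 together held 3590 and 3331 whole peaks of replicates 1 and 2. The H3K27me3 lists alone left 1151 stretches, with 1538 Mb, and H3K4me3 peaks covered 1.25% and 1.24% of these, against 4.79% and 4.83% of the rest. No H3K4me3 peak touched 121 of the 1151 (10.5%), and no whole one lay in 137 (11.9%). The stretches without H3K27me3 were overlapped by 4.49 and 4.08 H3K4me3 peaks per Mb, against 18.0 and 16.6 per Mb in the rest.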

How the data were processed

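CUT&RUN peak lists of 4 bESC libraries were used. According to the methods and the submitters' processing notes, the authors trimmed reads with Trim Galore and cutadapt 1.18, used BWA 0.7.17-r1188 for alignment to ARS-UCD1.2, removed duplicates and low quality alignments, and ran epic2 on each library (windows of 200 bp, a larger gap size for H3K27me3). No control library is stated. Each deposited list holds peak positions and the authors' score, a whole number of unnamed meaning, used within a list only. Depth is unknown.

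Peaks were read as whole windows, and overlapping or touching peaks of all 4 lists were merged into blocks. Gaps of 500 kb or more between blocks of chromosomes 1 to 29 were kept, and the stretches before the first and after the last peak were left out. The rule and the comparisons were chosen with earlier results of these data known. Regions named are the 5 longest, those of chromosomes with the largest number and share, 3 on either side of the limit, and the longest run. Others were named after their values were seen. The stretches were described with no test. Alternatives left out libraries or weak peaks or changed the limit or the border. The steps recovered 340 of 340 planted gaps in simulated lists, and bedtools 2.31.1 gave the same 798 gaps. Steps were run in Python 3.11.15 (scipy 1.17.1, pandas 2.3.3, matplotlib 3.10.9, numpy 2.4.6). Genes were not placed.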

Additional observations from a re-analysis of the deposited data

Results flagged for a closer look

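Chromosome X, which is outside the autosomes described above, had 4 gaps of 500 kb or more in the same union of peaks. The value is given because it comes from data the comparisons do not use and is above a limit of 3 set for a count of 0. Every autosome had at least 2 such gaps, so passing that limit says nothing about X. The gaps added up to 3.64 Mb, or 2.62% of the 139 Mb between the first and the last peak. With all peaks this was close to the 2.02% of chromosome 23, then the lowest autosome. Chromosome 23 was at 28.2% once peaks scoring below their list's median were dropped, and X is not given under that setting. A gap of 1551 kb lay at 106712801 to 108264200, and 3 neighbours of 675, 808 and 608 kb lay between 135630001 and 137751400.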

How the results depend on the processing

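No paired analysis was possible because stretches were described with no test, and values are given per replicate instead. Depth is unknown, and its part in the number and length of the stretches was not tested. Counts were judged against a factor of 1.5 and other values against the SD between the replicates.

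With 1 library left out, the number of stretches (798) ranged from 805 to 831, their length (815 Mb) from 823 to 875 Mb, their median (776 kb) from 776 to 796.8 kb, and the edges with H3K4me3 (82.3%) from 80.6% to 84.5% and with H3K27me3 (40.9%) from 37.5% to 44.4%. Without replicate 1 or 2 of both marks these were 838 and 832, 884 and 864 Mb, 796.6 and 787.1 kb, 81.9% and 83.9%, and 43.1% and 38.9%. With only peaks shared by both replicates the length was 944 Mb, the median 809 kb and the H3K4me3 share 85.0%. With the peaks below the median score dropped there were 988 stretches with 1132 Mb, a median of 863 kb and shares of 83.9% and 36.0%. A limit of 250 kb gave 1894 gaps, 1195 Mb, a median of 440.0 kb and an H3K27me3 share of 37.6%, and a limit of 1000 kb gave 254 gaps, 439 Mb and 1476 kb. The limit of 3 Mb, added after seeing the data, gave shares of 70.0% and 65.0%. Counting only peaks that reach the edge gave 64.1% and 37.3%, and any peak within 50 kb 85.0% and 45.4%. Joining peaks less than 1 kb apart or adding the stretch before the first peak changed neither number nor length.

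The mean share of replicate 2 peaks that touched a replicate 1 stretch, 2.59%, was 5.53% at 250 kb, 0.936% at 1000 kb, 5.23% without the lower-scoring peaks and 0.691% for peaks wholly inside, a count added after seeing the data. In the reverse direction 1.81% became 4.26%, 0.669%, 3.85% and 0.749%. H3K27me3 coverage of stretches without H3K4me3, 4.86%, became 5.59% at 250 kb and 2.60% at 1000 kb. H3K4me3 coverage of stretches without H3K27me3, 1.24%, became 1.67% at 250 kb, 0.901% at 1000 kb and 1.35% without the lower-scoring peaks.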

Other observations

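A strong and isolated island of H3K4me3 stood on chromosome 6 at 49952401 to 50012200, between a stretch of 3.44 Mb and the fifth longest of 4.45 Mb. Replicate 1 listed its main peak at 49952601 to 49965000 (12.4 kb) and replicate 2 at 49952401 to 49965200 (12.8 kb), with scores of 2167 and 1985 that stood at or above 99.7% of either list. No H3K27me3 peak was listed there in either replicate. The island was singled out after its values were seen, as the one with the highest score relative to its list among the 219. The next was on chromosome 11 at 85260201 to 85268000, also with H3K4me3 alone, at 98.7% and 98.3% of the lists of replicates 1 and 2. It lay between stretches of 1.58 Mb and 575 kb. Nearly level with it was an island on chromosome 17 at 25065001 to 25075800, with H3K4me3 at 98.7% and 98.6% of the lists. That island also had H3K27me3 peaks in both replicates, so strong islands were not all without H3K27me3.

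Blocks of a single window of 200 bp were rare but were found at the borders of the stretches. They made up 8 of the 1430 bordering blocks (0.559%) and 33 of all 33629 blocks (0.0981%), the 8 included. Single-window peaks on autosomes numbered 46 and 18 in the H3K4me3 lists of replicates 1 and 2 and 6 and 7 in the H3K27me3 lists. The same single window was listed for both marks at 7 places, among them that of the longest run on chromosome 20.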
